A study of Mus musculus with 6 samples.

Results

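The platelet-derived growth factor (PDGF) family was examined in the dorsal skin of tight skin (TSK) and wild-type (WT) mice. Its 7 genes were picked by name from the 55291 genes of the expression table: the ligand genes Pdgfa, Pdgfb, Pdgfc and Pdgfd, the receptor kinase genes Pdgfra and Pdgfrb, and the receptor-like gene Pdgfrl. All 7 passed the filter on low counts and were among the 19971 genes tested. Bulk RNA was sequenced from shaved dorsal skin of 3 TSK mice and 3 WT littermates, with 1 library per mouse. Both groups were of the C57BL/6 strain and 6 to 8 weeks old by the labels, and neither was treated. TSK mice carry a duplication within Fbn1, the gene of the microfibril protein fibrillin 1, and the mutation was maintained by backcrossing to C57BL/6. The mutation is present in all cells of the animal, so the libraries do not separate effects within one cell type from those of another. The sex label reads female, whereas the methods of the study describe male mice. The Y-linked gene Ddx3y had 56.7 to 72.8 CPM, that is counts scaled to 1000000 per library, over the 6 libraries. Eif2s3y, Kdm5d and Uty, also Y-linked, had 27.0 to 39.0, 31.4 to 46.2 and 27.4 to 36.5 CPM. The X-linked gene Xist had 2.57 to 4.58 CPM. Transcripts of the Y chromosome were thus present in all 6 libraries, which matches the male mice of the methods and not the label.

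PDGF ligands are secreted as dimers and act on receptor tyrosine kinases at the cell surface. PDGF-A and PDGF-B are cut by furin-like proteases inside the cell, whereas PDGF-C and PDGF-D are secreted with an N-terminal CUB domain that extracellular proteases must remove before the ligand can bind. PDGF-A and PDGF-C act mainly through the alpha receptor, PDGF-D mainly through the beta receptor, and PDGF-B through both. In skin, the alpha receptor is made by dermal fibroblasts and adipocyte precursors and the beta receptor by pericytes, vascular smooth muscle and many fibroblasts, while the epidermis makes PDGF-A and the endothelium PDGF-B. Pdgfrl encodes a protein that resembles the extracellular part of the receptors and has no kinase.

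The 2 ligand genes whose protein needs extracellular cleavage, Pdgfc and Pdgfd, were also the 2 ligand genes for which every TSK library was above every WT library, and the sequence before the start of each is shown for that reason. Pdgfc lies on the plus strand of chromosome 3 and its sequence is chr3:81036166-81036415. Pdgfd lies on the plus strand of chromosome 9 and its sequence is chr9:6168236-6168362. Both were taken from the RefSeq promoters of GRCm38.p6. That of Pdgfc ends at the base before its start. That of Pdgfd ends before the first base that RefSeq gives for the gene (6168363), whereas the start listed with the promoter is 6168486 and the deposited table begins the gene at 6168584. Capitals mark the only matches to any of 6 short motifs searched on both strands: GGAATG (the core of TEAD sites) in Pdgfc and TATAAA (the TATA box) in Pdgfd.
Pdgfc promoter: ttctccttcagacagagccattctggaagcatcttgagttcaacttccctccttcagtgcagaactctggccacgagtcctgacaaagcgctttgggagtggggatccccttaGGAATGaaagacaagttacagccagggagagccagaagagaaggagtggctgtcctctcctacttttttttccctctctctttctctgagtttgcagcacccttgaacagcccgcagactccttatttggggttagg
Pdgfd promoter: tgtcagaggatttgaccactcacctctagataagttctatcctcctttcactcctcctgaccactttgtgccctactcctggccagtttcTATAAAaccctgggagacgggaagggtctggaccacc
In Pdgfd the TATA box was at 6168326 to 6168331, with its last base 32 bases before the first base of the gene in RefSeq, 155 before the start listed with the promoter and 253 before the start in the deposited table. The other motifs were the CCAAT box, the GC box (GGGCGG), the AP-1 site (TGANTCA) and the RUNX site (TGTGGT). No motif overlapped another within these sequences.

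Among the 250 bases before each start in 32851 RefSeq promoters, TATAAA was present in 12.4%, GGAATG in 12.6%, GGGCGG in 32.7%, CCAAT in 33.8%, TGANTCA in 6.75% and TGTGGT in 14.05%. Promoters were found for 4 of the 7 members. The 2 starts listed for Pdgfa had a GC content of 66.4% and 72.4%, with 1 and 2 GC boxes. The GC content was 50.8% in Pdgfc, 53.6% in Pdgfd and 54.4% in Pdgfra, near the median of 52.4% over all promoters. Pdgfra had no match to any of the 6 motifs in these 250 bases. Pdgfb, Pdgfrb and Pdgfrl were not among the promoters.

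Library totals were 17561453 to 19219814 estimated counts and overlapped between the groups. Fbn1, as a check of the genotypes, was at 262 to 289 CPM in WT skin and at 1538 to 2284 CPM in TSK skin (edgeR adjusted p = 0.00327, with a log2 fold change of 2.54 and an SE of 0.22). Markers of skin were present in every library, such as the keratin gene Krt5 at 1245 to 2802 CPM and the collagen gene Col1a1 at 2511 to 22614 CPM. The makeup of the libraries differed, with genes of adult skeletal muscle at 175663 to 255999 CPM in sum in WT and 151321 to 173809 CPM in TSK. Tests therefore used TMM scaling, which limits the weight of a few abundant genes. Over all tested genes the median log2 fold change was -0.03 with TMM and 0.25 with library size only. The log2 fold changes below are TSK minus WT on the TMM scale.

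To determine whether PDGF ligand and receptor transcripts differed between TSK and WT skin, each member was compared in the fit over all tested genes. Pdgfd rose in TSK skin and was the 1 member of 7 past an adjusted p of 0.05, where 3.39% of tested genes passed, 2.71% higher and 0.681% lower. By edgeR 0 members were lower, also at an unadjusted p below 0.05 and with DESeq2. At an unadjusted p below 0.05 there were 3 members, Pdgfc, Pdgfd and Pdgfrb, all higher, where 12.1% of tested genes were higher and 7.9% lower. The same 3 were called with library size only (8.44% of genes higher), with DESeq2 (5.5%), in edgeR with no filter (2.99%) and in limma-trend with a pseudocount of 1 (8.87%) or 0.1 (8.82%). At the thresholds of the study, a fold above 2.5 and an adjusted p below 0.01, only Pdgfd was called, with edgeR (0.255% of genes higher) and with DESeq2 (1.5%). Log2 fold changes were positive in 5 members and negative in 2, with a median of 0.70. On the deposited CPM, every TSK library was above every WT library in 5 members, as it was in 29.1% of tested genes. After TMM scaling this held for 3 members, Pdgfc, Pdgfd and Pdgfrb, and for 14.1% of tested genes. In bulk tissue a smaller number of cells of a type and less RNA per cell cannot be told apart, and the same holds for more cells and more RNA per cell.

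**Figure D1:**
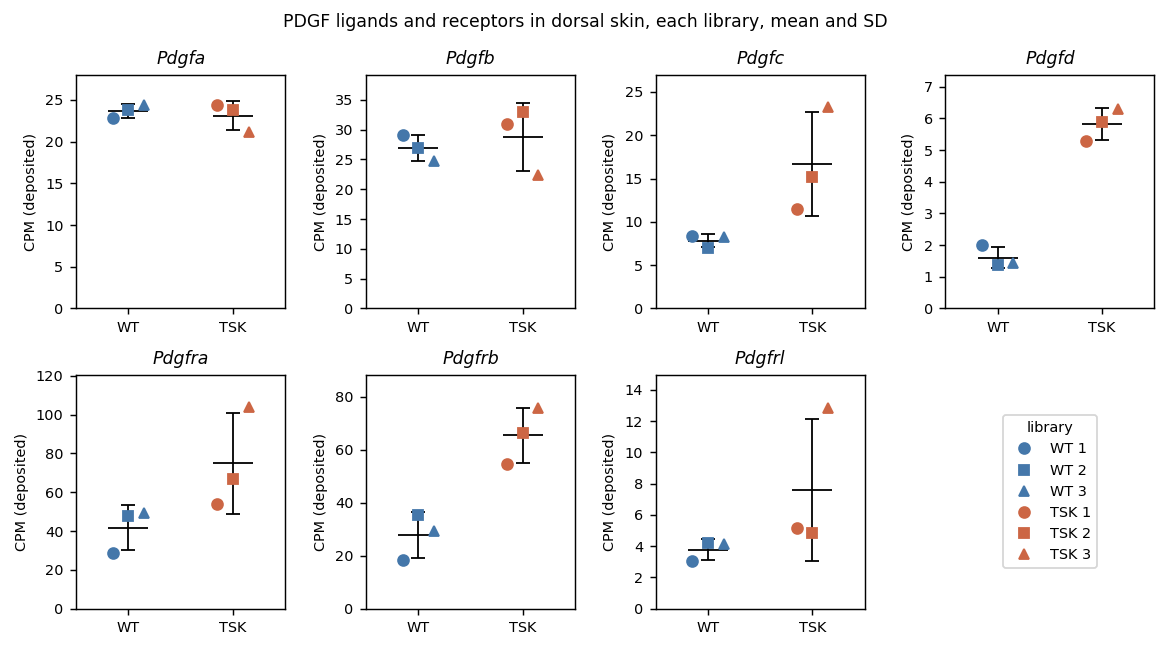
Deposited CPM of each member (vertical axis, starting at 0) in the 3 WT and 3 TSK libraries, with a point for each library and the mean and SD of each group as bars. Pdgfd lay between 1.38 and 1.99 CPM in WT and between 5.28 and 6.31 CPM in TSK, whereas the points of Pdgfa and Pdgfb overlapped.

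Pdgfd encodes the ligand of the beta receptor. It lies on the plus strand of chromosome 9 at 6168584 to 6378850 (mm10). WT libraries 1, 2 and 3 held 1.99, 1.38 and 1.43 CPM of Pdgfd, and TSK libraries 1, 2 and 3 held 5.28, 5.88 and 6.31 CPM. The lowest TSK library was well above the highest WT library, and the TSK libraries were close to each other. The ratio of mean CPM was 3.63 (1.60 ± 0.339 in WT against 5.82 ± 0.516 in TSK, SD, n = 3). On the log2 scale Pdgfd rose by 1.59 (SE 0.20, 95% interval 1.14 to 2.04, edgeR adjusted p = 0.00917). These levels rest on 35, 26 and 26 counts in WT and 96, 113 and 119 counts in TSK. Counting error alone gives 95% Poisson intervals of 24.4 to 48.7 counts in WT 1, the highest WT library, and 77.8 to 117 in TSK 1, the lowest TSK library, which did not overlap. Without WT 3 the log2 fold change was 1.54 and the adjusted p of edgeR rose to 0.0561, a fit in which 0.218% of tested genes were higher. Over all alternatives the log2 fold change of Pdgfd ran from 1.395 to 1.86 and its adjusted p from 3.48e-06 to 0.0561. Pdgfd holds Ddi1 on the opposite strand, which was at 0.0537 to 0.424 CPM.

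Pdgfc encodes the other ligand with a CUB domain, which acts on the alpha receptor. It lies on the plus strand of chromosome 3 at 81036416 to 81214040. The 3 WT libraries held 8.32, 6.97 and 8.19 CPM of Pdgfc, and the TSK libraries 11.5, 15.2 and 23.3 CPM. All TSK libraries were above all WT libraries, but they lay far apart, with TSK 3 the highest. The ratio of mean CPM was 2.13 (7.83 ± 0.744 against 16.7 ± 6.03, SD, n = 3). The difference of 0.80 on the log2 scale (SE 0.23, 95% interval 0.27 to 1.34) did not pass the threshold (edgeR adjusted p = 0.0995). Without TSK 3 it was 0.51. Scaling by library size only gave 1.09 with an adjusted p of 0.0289 in edgeR, and DESeq2 gave 0.80 with an adjusted p of 0.0318. The antisense gene Gm16000 lies opposite Pdgfc and had 0 counts in every library.

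Pdgfa and Pdgfb, the ligands cut inside the cell, showed no such separation. Pdgfa (chromosome 5, minus strand, 138976014 to 138997370) was at 22.8, 23.8 and 24.4 CPM in WT and 24.4, 23.8 and 21.1 CPM in TSK. The groups overlapped and their means differed by less than the SD of TSK (23.7 ± 0.799 against 23.1 ± 1.73 CPM, n = 3). Its log2 fold change was -0.32 (95% interval -0.65 to 0.0075, edgeR adjusted p = 0.26), and -0.03 with library size only. The antisense gene 6330403L08Rik overlaps the 5′ end of Pdgfa and was at 17.7 to 22.04 CPM. The kit marked strand, but the strand setting of the counting is not given in the sources used here, so reads of the pair cannot be told apart. Pdgfb (chromosome 15, minus strand, 79995874 to 80014977) was at 29.1, 26.8 and 24.8 CPM in WT and 31.0, 33.0 and 22.4 CPM in TSK. TSK 3 was the lowest and TSK 2 the highest of the 6 libraries. Gm41361, which overlaps Pdgfb, was at 0.407 to 0.840 CPM. The log2 fold change of Pdgfb was -0.18 (95% interval -0.57 to 0.21, edgeR adjusted p = 0.613), and it turned to 0.10 with library size only. It was -0.01 without TSK 3, -0.10 without WT 2 and -0.28 without TSK 2.

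Pdgfrb, the beta receptor, lies on the plus strand of chromosome 18 at 61045150 to 61085061. The WT libraries held 18.4, 35.5 and 29.5 CPM of Pdgfrb, and the TSK libraries 54.8, 66.2 and 75.6 CPM. The groups did not overlap, and WT 1 was well below the other WT libraries. The ratio of mean CPM was 2.36 (27.8 ± 8.66 against 65.5 ± 10.4, SD, n = 3). At 0.92 on the log2 scale (SE 0.28, 95% interval 0.28 to 1.55), the difference missed the threshold (edgeR adjusted p = 0.112). DESeq2 gave 0.92 with an adjusted p of 0.0218. Without WT 1 the value in edgeR was 0.66 (adjusted p = 0.059).

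Pdgfra, the alpha receptor, lies on the plus strand of chromosome 5 at 75152292 to 75198215. Its transcripts were at 28.5, 47.6 and 49.3 CPM in the WT libraries and 54.0, 66.6 and 104 CPM in the TSK libraries. TSK 1 was only slightly above WT 3, and after TMM scaling TSK 1 was at 51.0 CPM, below WT 2 at 57.9 CPM and WT 3 at 55.7 CPM. The log2 fold change of Pdgfra was 0.52 (SE 0.30, 95% interval -0.17 to 1.22, edgeR adjusted p = 0.388), a range that includes no change as well as a rise larger than that of Pdgfrb. It was 0.23 without TSK 3, 0.28 without WT 1 and 0.84 with library size only. A stretch of at most 63 bases of the longest Pdgfra transcript matches transcripts of 2167 other genes at 95% identity or more. Reads of 50 bases from that stretch could have been shared among them.

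Pdgfrl, the receptor-like gene, lies on the plus strand of chromosome 8 at 40926212 to 40990785. It was at 3.03, 4.19 and 4.14 CPM in WT and 5.14, 4.81 and 12.9 CPM in TSK. TSK 3 stood far above the other libraries, while TSK 1 and TSK 2 were close to WT. For Pdgfrl the log2 fold change was 0.70 (SE 0.39, 95% interval -0.20 to 1.60, edgeR adjusted p = 0.369), and it was 0.12 without TSK 3.

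**Figure D2:**
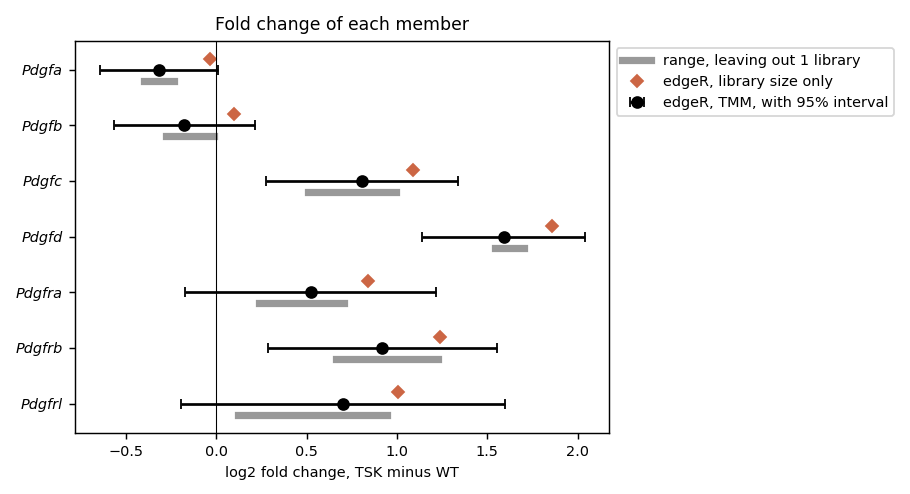
Log2 fold change of each member, TSK minus WT (horizontal axis), from edgeR with TMM scaling as black points with 95% intervals, with grey bars for the range when 1 library was left out and red diamonds for scaling by library size only. The intervals of Pdgfc, Pdgfd and Pdgfrb lay above 0, and only Pdgfd passed an adjusted p of 0.05 in this fit.

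To compare levels between members, CPM was divided by the length of the longest coding transcript in kb. Among the ligands in WT skin, the order per kb was Pdgfa (11.5 ± 0.388 CPM per kb), Pdgfb (9.14 ± 0.732), Pdgfc (2.22 ± 0.211) and Pdgfd (0.512 ± 0.108), and no neighbours in this order overlapped on library totals. After TMM scaling Pdgfa (10.8 to 14.04) and Pdgfb (9.50 to 11.1) overlapped. In TSK the order of the means was the same. Pdgfa (11.2 ± 0.838 CPM per kb) and Pdgfb (9.78 ± 1.92) now overlapped, whereas Pdgfc (4.73 ± 1.71) stayed below both and Pdgfd (1.86 ± 0.165) below Pdgfc. Compared within a library, Pdgfa was above Pdgfb in every WT and every TSK library. Pdgfra and Pdgfrb overlapped in both groups, at 6.12 ± 1.69 and 5.12 ± 1.60 CPM per kb in WT and 10.9 ± 3.78 and 12.1 ± 1.93 in TSK (SD, n = 3). Within each WT library, however, Pdgfra was above Pdgfrb. In TSK 1 and TSK 2 Pdgfrb was above Pdgfra, and in TSK 3 Pdgfrb was below Pdgfra. Pdgfrl was below Pdgfra and Pdgfrb within each library, at 2.45 ± 0.423 CPM per kb in WT and 4.91 ± 2.94 in TSK. Between libraries it overlapped in TSK, with Pdgfrl at 8.31 in TSK 3 and Pdgfra at 7.91 in TSK 1.

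Summed per kb, the 2 receptor kinases were at 7.57, 13.5 and 12.6 CPM per kb in WT and 18.01, 21.96 and 29.1 in TSK. The 4 ligands summed to 23.96, 23.1 and 23.1 CPM per kb in WT and 27.3, 28.97 and 26.5 in TSK. On library totals neither sum overlapped between the groups (receptors 11.2 ± 3.21 against 23.0 ± 5.64, ligands 23.4 ± 0.515 against 27.6 ± 1.26, SD, n = 3). After TMM scaling, added after seeing the data, the receptor sum was 12.7 ± 4.72 in WT and 20.8 ± 4.54 in TSK, still without overlap. The ligand sum then overlapped and its direction turned (23.4, 28.1 and 26.0 in WT, 25.7, 26.0 and 23.5 in TSK, means of 25.8 and 25.1, exact permutation p = 0.7). Shares within a library do not depend on scaling. The shares of a sum are tied to each other, since a higher share of some members lowers the rest, so their tests are not independent. Pdgfd made up 2.66%, 1.91% and 1.98% of the ligand sum in WT and 6.17%, 6.48% and 7.60% in TSK. Pdgfc made up 9.51% ± 0.817 in WT and 17.3% ± 6.83 in TSK, with 24.97% in TSK 3. The share of Pdgfa was 49.2% ± 2.68 in WT and 40.7% ± 2.36 in TSK, also without overlap, and that of Pdgfb was 39.1% ± 2.38 and 35.3% ± 5.74. On library totals the level of Pdgfa was 11.5 CPM per kb in WT and 11.2 in TSK, and the groups overlapped. By an exact permutation test over the 6 libraries, two-sided, the shares of Pdgfa, Pdgfc and Pdgfd and both sums on library totals reached p = 0.1, the smallest that 3 libraries against 3 can give (0.16 adjusted over the 8 quantities tested). For the share of Pdgfb the exact permutation p was 0.4. Pdgfrb held 45.4% ± 2.78 of the receptor sum in WT and 53.2% ± 4.61 in TSK, and these overlapped (exact permutation p = 0.2).

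**Figure D3:**
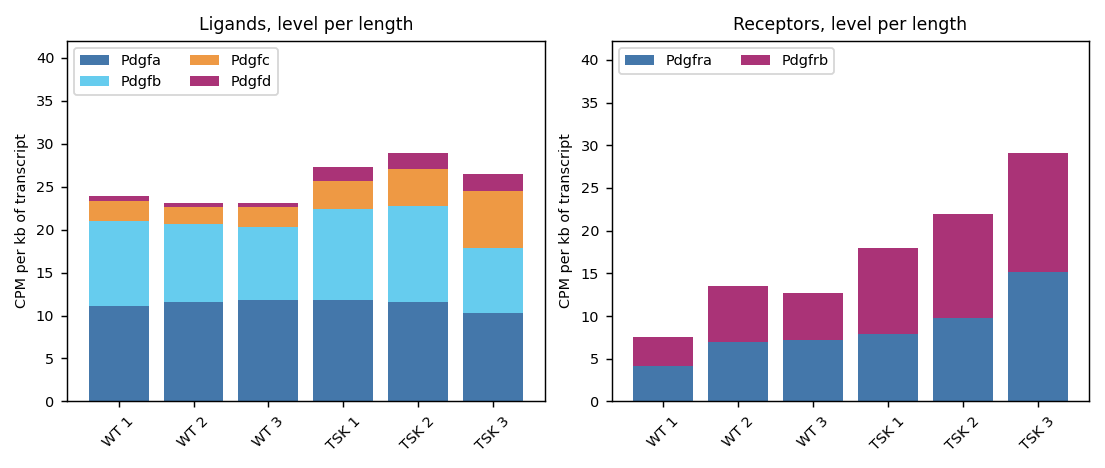
Stacked bars of CPM per kb of transcript on library totals (vertical axis, from 0) in each library, for the 4 ligands on the left and the 2 receptor kinases on the right. The ligand bars reach 23.1 to 23.96 in WT and 26.5 to 28.97 in TSK, and the receptor bars 7.57 to 13.5 in WT and 18.01 to 29.1 in TSK.

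Markers of several cell types that make the members were also at other levels in TSK than in WT. All 12 fibroblast markers had a positive log2 fold change (median 0.91, Dpt and Thy1 past the threshold), and their summed level was 7025 to 10720 CPM in WT and 21992 to 49874 CPM in TSK. TSK 3 held the highest sum, and it was also the highest library for Pdgfra, Pdgfrl, Pdgfc, Pdgfd and Pdgfrb on the deposited CPM. The 12 endothelial markers were all positive as well (median 0.72, Tek and Vwf past the threshold, 175 to 202 CPM in sum against 308 to 481). Of 12 mural markers, those of pericytes and vascular smooth muscle, 10 were positive (median 0.55, Myh11 past the threshold), while the sum overlapped at 2244 to 2690 CPM against 1893 to 2304 and was lower in every TSK library after TMM scaling (2189 to 3125 against 1677 to 2066). Des, which skeletal muscle also makes, took 59.2% to 79.4% of this sum. Its mean was 1949 CPM in WT and 1313 CPM in TSK. Of 12 keratinocyte markers 4 were positive (median -0.27, Lor higher past the threshold, 5354 to 9932 against 6234 to 10319 CPM). Other sums that did not overlap on library totals were those of adipocyte markers (496 to 690 CPM in WT, 840 to 3078 in TSK), macrophage markers (254 to 407 and 471 to 1285), Schwann cell markers (175 to 326 and 337 to 573), dermal papilla markers (8.30 to 11.2 and 18.1 to 27.0) and platelet markers (4.57 to 8.74 and 12.9 to 20.2). After TMM scaling the adipocyte sums (484 to 839 and 744 to 2760) and the Schwann cell sums (213 to 318 and 317 to 507) overlapped, and the other sums named here as separate stayed so. Only 2 of 8 platelet markers passed the filter on low counts. Among these further lists the called genes were the adipocyte genes Lep, Plin1 and Cfd (3.50, 3.16 and 2.56 on the log2 scale, edgeR adjusted p = 0.0275, 0.0422 and 0.0379), the dermal papilla gene Corin (3.49, 0.00519) and the Schwann cell gene Pmp22 (0.93, 0.0365). TSK 2 stood apart from the other TSK libraries in the adipocyte genes, with 63.9, 302 and 47.3 CPM of Plin1 and 13.9, 56.2 and 12.2 CPM of Lep in TSK 1, 2 and 3. The median log2 fold change was 2.37 over the adipocyte list, 0.90 over macrophage, 0.72 over Schwann cell, 0.77 over dermal papilla, 0.58 over platelet and -0.79 over adult skeletal muscle markers. These calls depended on the fit. In edgeR 2.71% of all tested genes were higher and 0.681% lower, and with DESeq2 5.5% and 1.98%. DESeq2 called 8 fibroblast, 4 endothelial, 4 mural (and 1 lower), 2 keratinocyte, 7 adipocyte and 5 macrophage markers higher and 14 skeletal muscle markers lower (1 higher). Without WT 3, edgeR called 0 fibroblast, endothelial, mural, keratinocyte, adipocyte and Schwann cell markers. The count was also 0 in the fibroblast list without TSK 2 or TSK 3, in the mural list without any 1 TSK library, in the adipocyte list without WT 2, and in the Schwann cell list without WT 2, TSK 2 or TSK 3. In the dermal papilla list 1 marker was called whichever library was left out. Other counts rose. Without WT 1, edgeR called 11 skeletal muscle and 2 mural markers lower, and 1 skeletal muscle, 2 mural, 3 Schwann cell and 1 macrophage markers higher. The adipocyte list had 5, 6 and 6 higher without TSK 1, 2 and 3, and the macrophage list 3 without TSK 1. In the endothelial list 3 were higher without WT 2, and in the keratinocyte list 2 without TSK 3. Over all tested genes these fits called 60 genes without WT 3, 287 without WT 2, 381 without TSK 2, 387 without TSK 3, 525 without TSK 1 and 1260 without WT 1, against 678 with all libraries. The 1260 without WT 1 were 713 higher and 547 lower of 20546 tested. Among markers that did not pass in edgeR, the greatest log2 fold changes were in the adipocyte genes Adipoq, Retn and Cidec (3.13, 2.88 and 2.71). Further log2 fold changes of such markers were 1.84 and 1.56 in the collagen genes Col1a1 and Col1a2, 1.68 and 1.36 in the mural genes Cnn1 and Higd1b, 1.31 in Cldn5, 0.96 in Krt77, 1.44 and 1.16 in the macrophage genes Cd163 and Mrc1, 0.91 in Cdh19, 1.117 and 0.05 in the platelet genes Pf4 and Itga2b, 0.95 in Wif1, and 1.26 and -1.09 in the myosin genes Myh2 and Myh4. No marker was at 0 in all libraries. The part of these cell types in the results for the members was not tested.

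Members were therefore also set against a marker list of a cell type known to make them, within each library. Per 1000 counts of the fibroblast list, Pdgfra had 4.06, 5.01 and 4.60 counts in WT and 2.42, 3.03 and 2.08 in TSK, so that every TSK library was below every WT library (log2 difference -0.87). Pdgfrl (-0.83) and Pdgfc (-0.67) were also lower in every TSK library relative to this list, each with an exact permutation p of 0.1. Col1a1, Col3a1 and Col1a2 took most of the list (31.0% to 45.3%, 27.4% to 37.9% and 18.1% to 21.1% of its counts). Against the 6 fibroblast markers that are not collagens, a list chosen after seeing the data, the groups overlapped for Pdgfra (-0.31, exact permutation p = 0.2), Pdgfrl (-0.27, p = 0.5) and Pdgfc (-0.11, p = 0.7). These differences moved with single libraries, to -0.18 for Pdgfra without WT 3, to 0.0011 without TSK 2 and -0.55 without TSK 3 for Pdgfrl, and to 0.05 without WT 1 and -0.28 without WT 2 for Pdgfc. With the mean log2 CPM of the whole list in place of the sum, the differences were -0.41 for Pdgfra, -0.37 for Pdgfrl and -0.20 for Pdgfc.

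Pdgfd did not separate the groups relative to fibroblast markers. It had 0.284, 0.146 and 0.133 counts per 1000 of the fibroblast list in WT and 0.237, 0.267 and 0.126 in TSK (log2 difference 0.18, exact permutation p = 1). This difference was 0.52 without WT 1 and 0.51 without TSK 3, turned to -0.02 without WT 3 and to -0.03 without TSK 2, and was 0.64 with the mean log2 CPM of the list. Against the list without collagens it was 0.74 (exact permutation p = 0.2), and TSK 3 was then below WT 1. Relative to mural markers without Des, a list chosen after seeing the data, Pdgfd did not overlap between the groups. It had 4.05, 2.26 and 2.58 counts per 1000 in WT and 7.17, 6.26 and 9.23 in TSK (1.38, exact permutation p = 0.1).

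Pdgfrb was higher relative to mural markers, with 8.20, 13.8 and 10.96 counts per 1000 in WT and 26.1, 28.7 and 39.96 in TSK (log2 difference 1.53, exact permutation p = 0.1). Des, which skeletal muscle also makes, took 59.2% to 79.4% of this list. Without Des, again chosen after seeing the data, the difference was 0.78 and the groups still did not overlap (exact permutation p = 0.1). With the mean log2 CPM in place of the sum it was 0.47 for the list with Des and 0.34 for the list without. In the list without Des, Abcc9 had the highest mean in both groups (222 CPM in WT and 199 CPM in TSK). The log2 fold change of Abcc9 was -0.46 (edgeR adjusted p = 0.308). Relative to the fibroblast list Pdgfrb overlapped between the groups (-0.42, exact permutation p = 0.4). It was -0.14 without TSK 3, -0.26 without WT 2 and -0.63 without TSK 2, and the difference was 0.04 with the mean log2 CPM of that list.

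Pdgfb was lower relative to endothelial markers in every TSK library than in any WT library. It had 156, 133 and 142 counts per 1000 of the endothelial list in WT and 90.1, 68.6 and 72.7 in TSK, a log2 difference of -0.90 without overlap (exact permutation p = 0.1). With the mean log2 CPM of the list the difference was -0.96. Pdgfa overlapped relative to keratinocyte markers, with 2.30, 4.45 and 3.81 counts per 1000 in WT and 2.36, 3.43 and 3.39 in TSK (-0.17, exact permutation p = 0.6), and this difference was -0.45 without WT 1, turned to 0.03 without WT 2 and to 0.01 without TSK 1, and was -0.32 with the mean log2 CPM of the list.

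Ligands and receptors were compared with each other in the same way. For every 1000 counts of Pdgfb there were 68.5, 51.6 and 57.6 counts of Pdgfd in WT and 170, 178 and 282 in TSK (log2 difference 1.80). For every 1000 counts of Pdgfa there were 365, 293 and 336 of Pdgfc in WT and 472, 637 and 1101 in TSK (1.07). Neither ratio overlapped between the groups (exact permutation p = 0.1 for each). Both pairs were chosen after seeing the data. Pdgfrb had 645, 745 and 598 counts per 1000 of Pdgfra in WT and 1014, 994 and 729 in TSK, where TSK 3 was below WT 2 (0.45, exact permutation p = 0.2). In all, 17 such ratios were computed, and those with a p of 0.1 had an adjusted p of 0.189 (Benjamini-Hochberg).

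**Figure D4:**
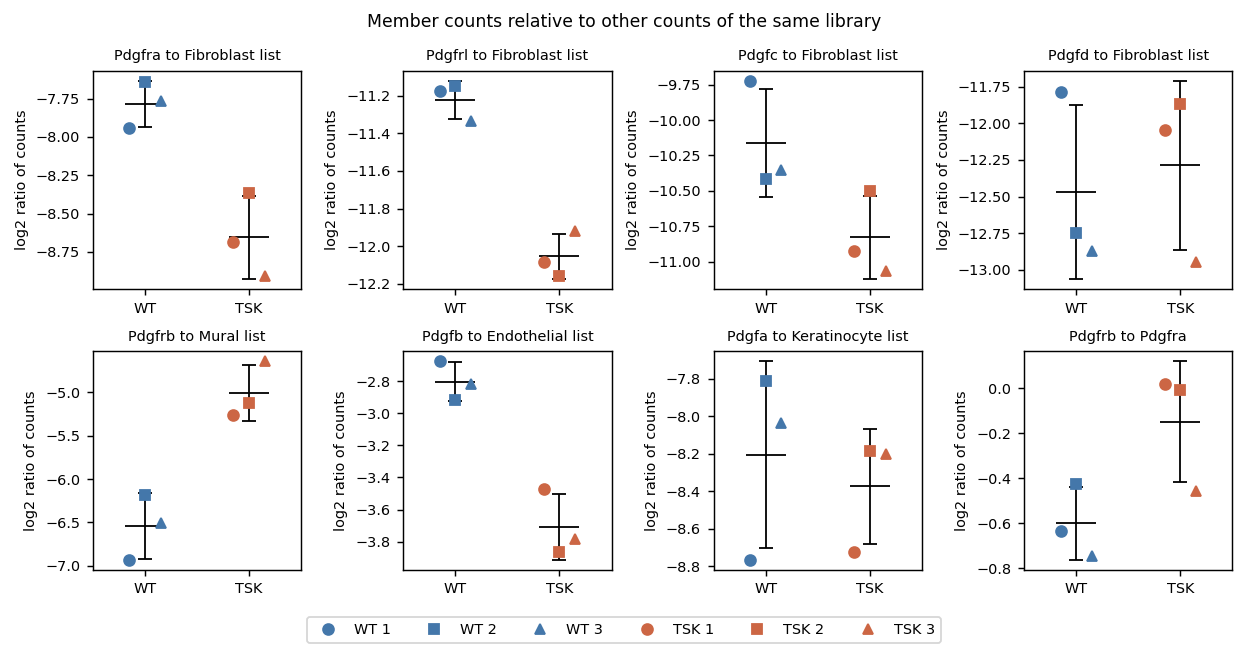
Log2 ratio of the counts of a member to the summed counts of a marker list, or of Pdgfrb to Pdgfra (vertical axes, which do not start at 0), for each library, with the mean and SD of each group. Pdgfra, Pdgfrl, Pdgfc and Pdgfb were lower in TSK relative to their list, Pdgfrb was higher relative to mural markers, and Pdgfd, Pdgfa and the ratio of Pdgfrb to Pdgfra overlapped. Collagen genes took most of the fibroblast list and Des most of the mural list. Against fibroblast markers that are not collagens (not shown), Pdgfra, Pdgfrl and Pdgfc overlapped.

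The genes around the ligands and receptors were described by lists of the pathway. Their counts stand beside 2.71% of all tested genes higher and 0.681% lower in edgeR, 12.1% and 7.9% at an unadjusted p below 0.05, and 5.5% higher with DESeq2. Of the genes that cleave or bind PDGF, 13 of 14 were tested and A2m was not. Of these, 2 rose and 0 fell in edgeR (8 and 0 at an unadjusted p below 0.05, 6 and 0 with DESeq2), 11 had a positive log2 fold change, and the median was 0.65. The 2 genes are 15.4% of the list. Plat, the tissue plasminogen activator and known to cleave the CUB domain from PDGF-C, was at 7.06 ± 0.283 CPM in WT and 25.6 ± 5.18 CPM in TSK, a rise of 1.57 on the log2 scale (SE 0.17, edgeR adjusted p = 0.00711). Lrp1, an endocytic receptor that associates with the beta receptor, rose by 0.98 on the log2 scale, with 378 ± 14.5 CPM in WT and 911 ± 256 CPM in TSK (edgeR adjusted p = 0.0475). Pcsk5, a furin-like protease gene, was at 5.54, 8.16 and 5.77 CPM in WT and 12.5, 18.2 and 38.8 CPM in TSK, but did not pass (1.52, edgeR adjusted p = 0.0783). No other protease gene of the list passed, with 1.21 in Pcsk6, 0.06 in Plau and 0.29 in St14 (edgeR adjusted p = 0.0666, 0.931 and 0.222).

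Downstream of the receptors, 1 of 28 signalling genes rose and 0 fell in edgeR (5 and 0 at an unadjusted p below 0.05, 2 and 0 with DESeq2), with 17 positive and a median log2 fold change of 0.07. At 3.57% of the list, this was near the share of all tested genes. Fyn, a kinase of the Src family, rose by 1.10 on the log2 scale, with 17.8 ± 1.72 CPM in WT and 46.4 ± 7.99 CPM in TSK (SE 0.14, edgeR adjusted p = 0.00888). Mapk3, the kinase ERK1, had the next greatest change in this list (0.62, edgeR adjusted p = 0.0643). Among 14 genes that attenuate receptor signalling, 1 rose and 0 fell in edgeR (3 and 2 at an unadjusted p below 0.05, 1 and 1 with DESeq2), with 8 positive and a median of 0.16. It was Ptprj, a receptor tyrosine phosphatase, with 29.4 ± 5.36 CPM in WT and 65.2 ± 19.3 CPM in TSK (0.87, edgeR adjusted p = 0.0492). Socs3, an inhibitor of cytokine signalling, had a log2 fold change of -1.001 (edgeR adjusted p = 0.071).

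Transcription factor genes that growth factors are known to induce were read as well. Of 14 tested, 0 were higher and 1 lower in edgeR (3 and 2 at an unadjusted p below 0.05, 1 and 1 with DESeq2), and the median log2 fold change was -0.23 with 6 positive. Fosl1, a partner of Jun in AP-1, was lower, at 2.93 ± 2.03 CPM in WT and 0.605 ± 0.137 CPM in TSK (-2.56 on the log2 scale, SE 0.53, edgeR adjusted p = 0.0381). WT 3 was at 5.28 CPM for Fosl1 and the other WT libraries at 1.77 and 1.76. Fosb was at 3.25, 12.7 and 28.8 CPM in WT and 3.96, 2.71 and 7.42 CPM in TSK (-2.00, edgeR adjusted p = 0.162).

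Related growth factor systems were read for comparison. Among 6 genes of the other class III receptor kinases and their ligands, 1 rose and 0 fell in edgeR (4 and 0 at an unadjusted p below 0.05, 3 and 0 with DESeq2), 6 were positive and the median log2 fold change was 0.77. Il34, a ligand of Csf1r, rose by 0.85 on the log2 scale, with 11.4 ± 3.88 CPM in WT and 24.6 ± 2.04 CPM in TSK (edgeR adjusted p = 0.0416). Csf1r and Kit, which are neighbours of PDGF receptor genes in the genome, had log2 fold changes of 1.06 and 1.01 (edgeR adjusted p = 0.0756 and 0.0801). Csf1r begins 15537 bases beyond Pdgfrb, and Kit and then Kdr begin 376701 and 734612 bases beyond Pdgfra. Chic2 lies 107518 bases from Pdgfra, nearer than Kit, and was at 0.14 (edgeR adjusted p = 0.582). Near Pdgfrb, Slc6a7 (30928 bases away) was at 1.35 and Hmgxb3 (46216 bases away) at 0.01 (edgeR adjusted p = 0.111 and 0.967). Among 8 VEGF ligands and receptors 0 passed in edgeR (2 at an unadjusted p below 0.05, 1 with DESeq2) and the median was 0.31, with the highest value in Kdr (1.24, edgeR adjusted p = 0.0845) and then Flt4 (0.87, 0.103). Leaving out 1 library also added calls. The genes that cleave or bind PDGF had 4 higher without TSK 1, the signalling genes 2 higher, the attenuating genes 1 lower and the transcription factors 2 lower without WT 1, and the VEGF genes 1 higher without TSK 3. Over all tested genes, 713 of 20546 were higher and 547 lower without WT 1. Without TSK 1, 433 of 20518 were higher, and without TSK 3, 322 of 20317. Among these list genes, Plat kept its call without any 1 library. The edgeR adjusted p of Fyn was 0.0561 without WT 3. Lrp1 (0.0529 to 0.177) and Ptprj (0.0543 to 0.15) lost their call without any 1 library other than TSK 1, and Il34 (0.0783 to 0.156) and Fosl1 (0.0521 to 0.107) without any 1 other than WT 1 (edgeR adjusted p). With upper quartile scaling in edgeR the adjusted p was 0.0540 for Lrp1, 0.0618 for Ptprj and 0.0517 for Il34, and in limma-voom it was 0.0524 for Lrp1, 0.0605 for Ptprj and 0.0766 for Fosl1, so that these calls also ended there.

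**Figure D5:**
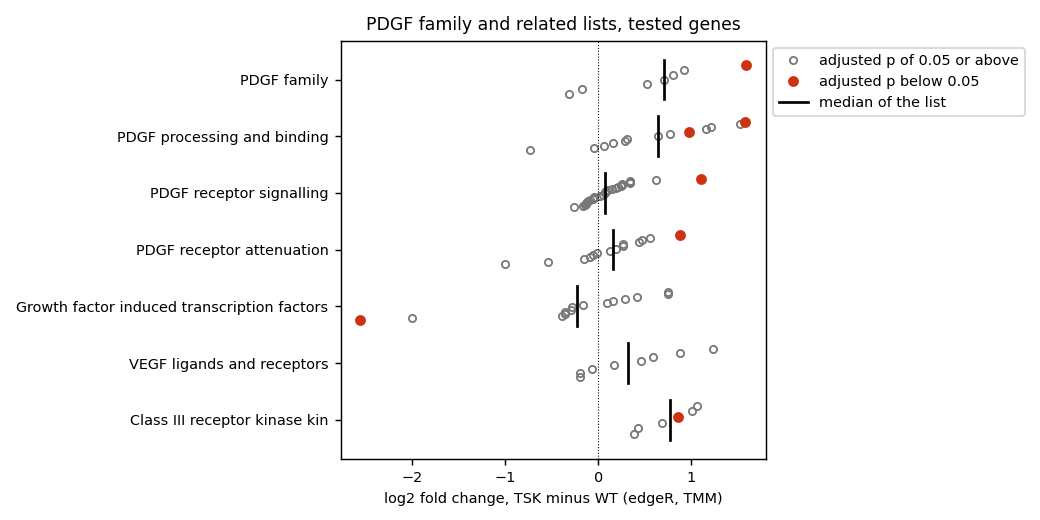
Log2 fold change, TSK minus WT (horizontal axis), of each tested gene in the PDGF family and the 6 related lists, with red points for genes with an adjusted p below 0.05 in edgeR and a black line at the median of each list. Pdgfd, Plat, Lrp1, Fyn, Ptprj and Il34 were the genes called higher and Fosl1 the gene called lower.

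The genes whose levels followed each member most closely over the 6 libraries were found by the root mean square difference of centred TMM log2 CPM, among 12016 genes (12017 for Pdgfd) with a mean of at least 5 CPM. Nearest to Pdgfd were Cmah (difference 0.113), Ugdh (0.131) and Lepr (0.132), with log2 fold changes of 1.62, 1.46 and 1.66. Nearest to Pdgfc were A4galt (0.0990), Dennd2a (0.102) and Sipa1 (0.107). Nearest to Pdgfra were Col6a2 (0.0844), Ssc5d (0.1003) and Colec12 (0.121), and nearest to Pdgfrb were Penk (0.105), Fbln2 (0.108) and C1s1 (0.116). Col6a2 is also 1 of the 12 fibroblast markers. Nearest to Pdgfrl were Itgbl1 (0.110), Pcolce (0.129) and Dpep1 (0.132), of which Pcolce encodes an enhancer of procollagen cleavage. Pdgfa and Pdgfb were nearest to AU022252, Rars and Oxsr1 and to Slc4a8, Mcts1 and Hpgds. These rankings describe 6 libraries and carry no test.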

How the data were processed

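Dorsal skin RNA of 3 WT and 3 TSK mice was analysed, grouped by the genotype in the labels. The authors depleted ribosomal RNA, made libraries with a stranded kit and sequenced them as single reads of 50 bases. Per the labels and the methods of the study, reads were demultiplexed with bcl2fastq 2.19.1.403, aligned with STAR to mm10 and counted per gene with Ensembl annotation in Partek 11.0. The deposited tables hold estimated counts and CPM, the latter scaled by the authors to 1000000 per library. Only 43.3% to 45.4% of non-zero counts were whole (within 0.001), so a read may be shared among genes, and estimated counts were rounded before the tests, which had been planned for raw counts.

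edgeR 4.0.16 (quasi-likelihood test, R 4.3.3) was run on all 19971 genes kept by filterByExpr with TMM scaling, with Benjamini-Hochberg adjustment over all of them and a call at 0.05. Standard errors were derived from the F statistic and 95% intervals from the t distribution of the fit. DESeq2 1.42.0 and limma 3.58.1 were alternatives, and limma-trend used log2(CPM + 1) or log2(CPM + 0.1). The study used DESeq2 with a fold above 2.5 and an adjusted p below 0.01. Ratios and shares within a library were compared by an exact permutation test, two-sided. Named genes were all members, the mutated gene Fbn1, called genes and the 2 greatest changes of each list (at most 5 a list), and the 3 nearest profiles. Adipoq, Retn, Cidec, Des, Abcc9, Pcsk6, Plau, St14, Chic2, Slc6a7 and Hmgxb3 were added after their values were seen. Ddx3y and the other sex-linked genes, Krt5 and some genes overlapping members were named as checks. Members and lists were chosen with earlier results of these data known. Transcripts were compared by BLAST 2.17.0, and gene coordinates and lengths are from GENCODE M21. On simulated counts for TSK against WT (19657 genes tested), edgeR recovered 52% of 100 genes changed by 1 and 96% of 100 changed by 2 on the log2 scale, with 11 false calls. Mice were not treated as paired. Counts of libraries within a group differed beyond sampling noise (chi-square per degree of freedom of at least 8.02).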

Additional observations from a re-analysis of the deposited data

How the results depend on the processing

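Of 119 refits of single members, 104 kept direction and call, 11 gained the call (Pdgfc in 5 and Pdgfrb in 6), 1 lost it (Pdgfd without WT 3) and 3 reversed, all in Pdgfb: 0.10 with library size only and 0.078 and 0.080 in limma-trend with pseudocounts of 1 and 0.1. Called members numbered 3 with library size only, DESeq2, no filter and limma-trend with either pseudocount (8.44%, 5.5%, 2.99%, 8.87% and 8.82% of tested genes were higher), and 0 to 1 without 1 library. They numbered 1 at the thresholds of the study in edgeR and, chosen after seeing the data, in DESeq2. The 678 calls over all genes became 1778 with library size only (1685 higher and 93 lower), 1544 with DESeq2 (1135 and 409), 1871 and 1860 in limma-trend with pseudocounts of 1 and 0.1, 1387 with no filter, 58 at the thresholds of the study in edgeR and 376 in DESeq2, and 60 to 1260 without 1 library (60 without WT 3, 1260 without WT 1). Stricter thresholds lower the count by construction, and otherwise the cause was not tested.

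A replicate block gave 2 members (Pdgfd and Pdgfrb, the latter 0.99 with an edgeR adjusted p of 0.0419) and 794 genes, and ended the calls of Lrp1 (0.0555), Il34 (0.0507) and the Schwann cell marker Pmp22, but same-numbered libraries did not vary together (correlations 0.0112, 0.167 and -0.0938), so the numbers give no pairing. With the mean log2 CPM of a list in place of its sum, ratios to the fibroblast list became -0.41 (Pdgfra), -0.37 (Pdgfrl), -0.20 (Pdgfc) and 0.042 (Pdgfrb), and ratios to mural markers 0.47 (Pdgfrb), and, without Des, 0.34 (Pdgfrb) and 0.94 (Pdgfd, 1.38 with the sum). Of 133 ratio alternatives the other 126 moved by less than the SD pooled over WT and TSK libraries, and 121 of all moved by less than the SD of WT. The ligand sum per kb differed by 4.22 (TSK minus WT) on library totals and by -0.77 after TMM scaling. Pdgfd rests on the fewest counts, 26 to 35 in WT.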
